A study of Mus musculus with 8 samples.

Results

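The 9 genes described here encode the vascular endothelial growth factor (VEGF) system: the ligands Vegfa, Vegfb, Vegfc and Pgf, the receptor tyrosine kinases Flt1, Kdr and Flt4, and the co-receptors Nrp1 and Nrp2. They were chosen by symbol, from probe sets that the platform annotation maps to exactly 1 gene, and all 9 were found among 19938 measured genes, each on a single probe set. RNA of mouse pancreatic buds at e12.5 was read on Affymetrix gene arrays, with 4 pools of RNA and 2 arrays per pool. The VEGF pool held fresh buds of 3 embryos carrying Pdx1-tTA, a transactivator expressed from the promoter of Pdx1, a gene of the early pancreatic epithelium, together with TET-VEGF, a VEGF transgene under its control. The control pool held fresh buds of 3 littermates with Pdx1-tTA and no VEGF transgene, so the transactivator was shared by both. The explant pools were wild-type buds cultured for 2 days with VEGFR2i, an inhibitor of the receptor encoded by Kdr, or with vehicle, 5 in each pool.

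VEGF ligands are secreted dimers that bind receptors on endothelial cells and drive the growth and survival of vessels. Vegfa signals mainly through the product of Kdr, while the product of Flt1 binds Vegfa tightly with weak kinase activity and so also acts as a decoy. Flt4 encodes the receptor of Vegfc and Vegfd and is known from lymphatic vessels and from growing blood vessels, and Vegfb and Pgf bind the Flt1 product alone among the receptors. Neuropilins are co-receptors for VEGF and for class 3 semaphorins. In the pancreas, epithelium is a known source of Vegfa, and vessels lie close to it from the first bud stages.

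Each condition was a single pool, and its second array was a technical repeat, so no p-value for a condition could be had. The spread between the 2 arrays of a pool measures hybridization error only. An interval in square brackets is the range of a difference over the 4 pairs of arrays. Values are log2 expression. The size rule called a gene when its pool means were 1.5-fold or more apart (0.58 in log2) and the arrays of the pools did not overlap. By this rule 110 genes (0.552%) were higher and 186 (0.933%) lower in VEGF buds than in control buds. Between the explants 363 (1.82%) were higher and 74 (0.371%) lower in the VEGFR2i-labelled pool. Every count of called genes below is to be read beside these shares. The 2 arrays of a pool differed by a median of 0.06 to 0.07 over all genes, and no member differed by 1.5-fold between them. The explant pools go against their labels: endothelial genes, which an inhibitor of this receptor would be thought to lower, were far higher in the pool labelled VEGFR2i. The labels were kept, and no explant direction can be read as an action of the inhibitor; with the labels exchanged, every explant difference below would have the opposite sign.

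The 3 receptor genes met the size rule in both comparisons, and Vegfa, a ligand of the Flt1 and Kdr products, met it in neither. The stretch of 250 bases before the annotated start of each of these 4 genes is therefore printed, from RefSeq on GRCm38.p6, read 5′ to 3′ along the gene. Capitals mark 4 short motifs searched on both strands: a form of ETS site (CCGGAA), a hypoxia response core (ACGTG), a GC box (GGGCGG) and a TATA box (TATAAA). For Vegfa, the first of 2 starts in the table is shown.
Flt1, chr5:147726012-147726261, minus strand: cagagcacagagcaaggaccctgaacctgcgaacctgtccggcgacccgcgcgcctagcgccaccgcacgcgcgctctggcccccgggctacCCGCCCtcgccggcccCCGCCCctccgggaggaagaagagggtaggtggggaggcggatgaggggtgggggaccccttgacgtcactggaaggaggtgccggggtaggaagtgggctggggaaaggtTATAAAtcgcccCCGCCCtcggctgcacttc
Kdr, chr5:75978456-75978705, minus strand: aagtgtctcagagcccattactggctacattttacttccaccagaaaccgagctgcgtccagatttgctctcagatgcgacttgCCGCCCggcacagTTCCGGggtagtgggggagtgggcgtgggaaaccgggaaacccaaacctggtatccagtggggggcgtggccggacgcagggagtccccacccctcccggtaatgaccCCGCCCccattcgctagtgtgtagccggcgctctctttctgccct
Flt4, chr11:49609429-49609678, plus strand: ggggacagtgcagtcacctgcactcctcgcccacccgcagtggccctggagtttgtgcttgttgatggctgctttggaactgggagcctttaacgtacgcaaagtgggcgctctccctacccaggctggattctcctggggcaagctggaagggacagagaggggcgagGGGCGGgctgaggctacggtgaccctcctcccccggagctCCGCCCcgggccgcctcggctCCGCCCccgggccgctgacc
Vegfa, chr17:46032378-46032627, minus strand: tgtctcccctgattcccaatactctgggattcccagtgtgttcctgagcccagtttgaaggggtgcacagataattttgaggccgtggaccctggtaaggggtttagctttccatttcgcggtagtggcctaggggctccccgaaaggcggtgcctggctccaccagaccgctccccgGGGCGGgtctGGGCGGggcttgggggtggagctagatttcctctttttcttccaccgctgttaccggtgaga

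All 4 stretches held GC boxes: 3 before Flt1, 2 before Kdr, 3 before Flt4 and 2 before Vegfa. Of 32817 stretches of the same length before mouse starts, 32.7% held at least 1 on either strand. A TATA box stood 31 to 26 bases before the start of Flt1 and in none of the other 3 stretches, against 12.4% of all stretches. The ETS letters CCGGAA occurred once, before Kdr, on the minus strand at 153 to 148 bases from the start, against 12.02% of all stretches. Other forms of an ETS site were not searched, so the other stretches are not shown to lack one. The hypoxia core was in none of the 4 stretches and in 16.6% of all, which says only that these letters are not in the window. The stretch before the second Vegfa start, not printed, held it once, on the minus strand at 211 to 207 bases from that start. Their GC content was 70.4% for Flt1, 61.6% for Kdr, 68.4% for Flt4 and 59.2% for Vegfa, against a median of 52.4% over all stretches. GC boxes were thus not particular to the receptor genes, since Vegfa and each other member had them before the first listed start.

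**Figure D1:**
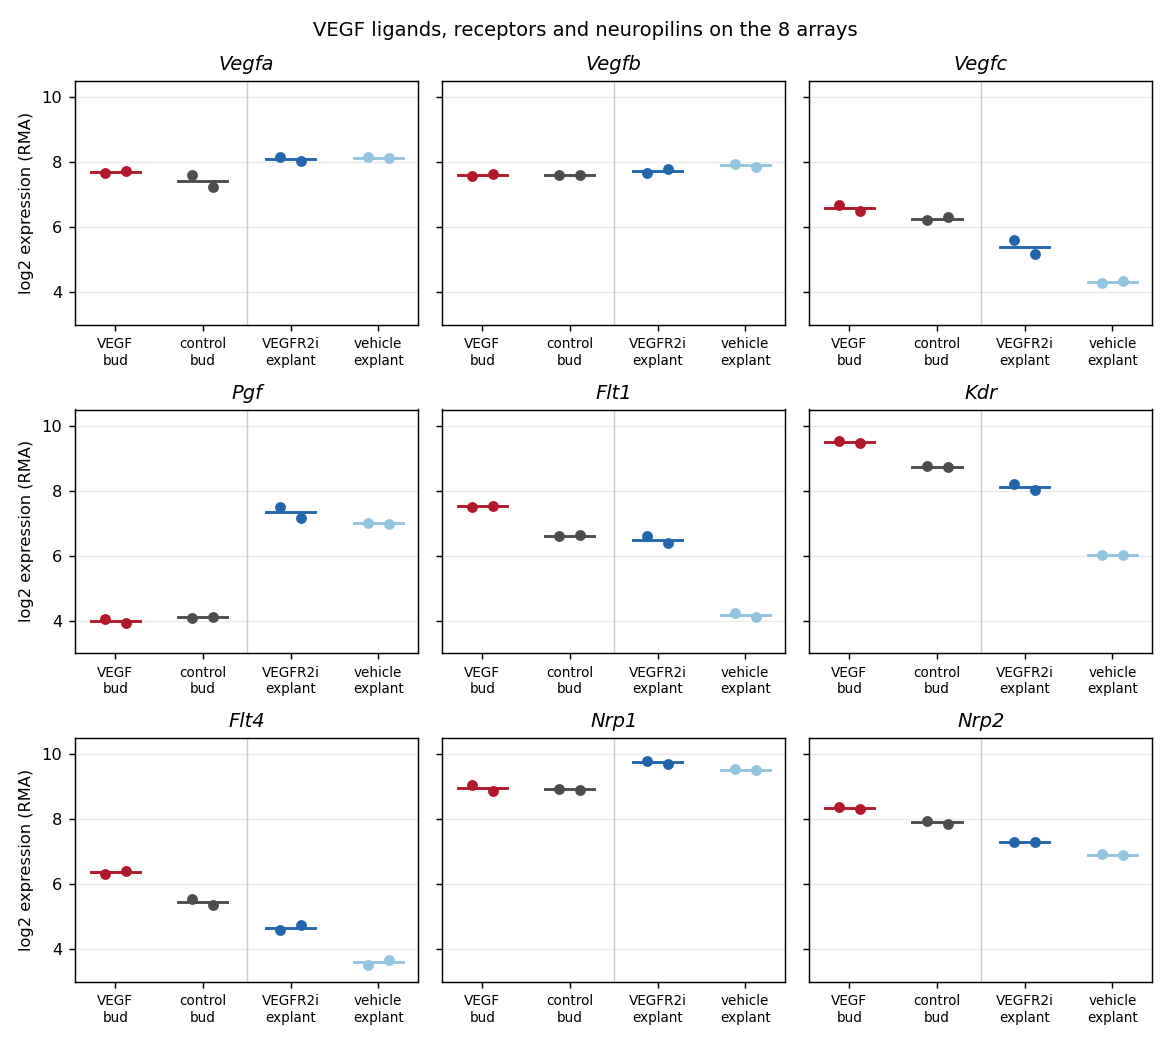
Log2 expression (RMA) of the 9 genes on the 8 arrays. Each point is an array, each bar the mean of a pool, and the grey line separates fresh buds from explants; levels can be followed across pools within a panel but not compared between panels, which hold different probe sets. Flt1, Kdr, Flt4, Nrp2 and Vegfc step down from the VEGF pool to the vehicle pool, and Pgf lies near 4 in buds and near 7 in explants.

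In fresh buds, all 3 receptor genes were higher with the VEGF transgene, by 1.68-fold to 1.89-fold, while none of the 4 ligands and neither neuropilin met the size rule. Flt1 was at 7.51 and 7.52 on the VEGF arrays and at 6.61 and 6.63 on the control arrays. The pool difference was 0.90 [0.88, 0.91], or 1.86-fold, and no array of one pool came near the other. Kdr was at 9.52 and 9.46 with the transgene and at 8.76 and 8.72 without it. Its difference was 0.75 [0.70, 0.80], or 1.68-fold, again with the arrays of the pools well apart. Flt4 was at 6.31 and 6.41 against 5.53 and 5.36, a difference of 0.92 [0.78, 1.05] or 1.89-fold. Among all 19938 genes, Flt4 had the 18th largest increase, Flt1 the 20th and Kdr the 45th.

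The sizes of the 3 increases were close to each other. The increase of Flt1 exceeded that of Kdr by 0.14 [0.08, 0.21]. That of Kdr was below that of Flt4, with a difference of -0.16 [-0.31, -0.02] between them. Flt1 and Flt4 could not be ordered, with a difference of -0.02 [-0.17, 0.13].

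The neuropilins differed from each other. Nrp2, the neuropilin known from veins and lymphatic vessels, was at 8.37 and 8.33 on the VEGF arrays and at 7.94 and 7.87 on the control arrays. The difference of 0.45 [0.39, 0.50], or 1.36-fold, had arrays apart but lay under the size rule. Nrp1, known from arteries, tip cells and axons, was at 9.04 and 8.87 against 8.94 and 8.89. Its arrays overlapped, with a difference of 0.04 [-0.07, 0.15] that changed sign without VEGF array 1. The Nrp2 difference exceeded the Nrp1 difference by more than the arrays' spread, the Nrp1 value minus the Nrp2 value being -0.41 [-0.49, -0.33].

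Ligand genes were close in the fresh bud pools. Vegfa was at 7.67 and 7.73 on the VEGF arrays and at 7.62 and 7.25 on the control arrays, a difference of 0.27 [0.06, 0.48]. The control arrays spread more than any other pair for this gene, and the difference was 0.09 without control array 2 and 0.45 without control array 1. The labels do not say which part of Vegfa the transgene carries, and the files give no probe positions, so this value checks neither the transgene nor its level. Vegfc, the Flt4 ligand, was at 6.68 and 6.50 against 6.22 and 6.31, a difference of 0.32 [0.19, 0.46] with arrays apart. Vegfb was at 7.58 and 7.64 against 7.61 on both control arrays, and the arrays overlapped. Pgf, a ligand first known from placenta, was at 4.05 and 3.94 against 4.10 and 4.13, a difference of -0.11 [-0.19, -0.04] in a dim gene, which was -0.06 without VEGF array 2. In all, 3 of 9 members were higher and none lower, against 0.552% and 0.933% of all genes. Arrays of the pools were apart for 7 of the 9, against 45.3% of all genes.

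**Figure D2:**
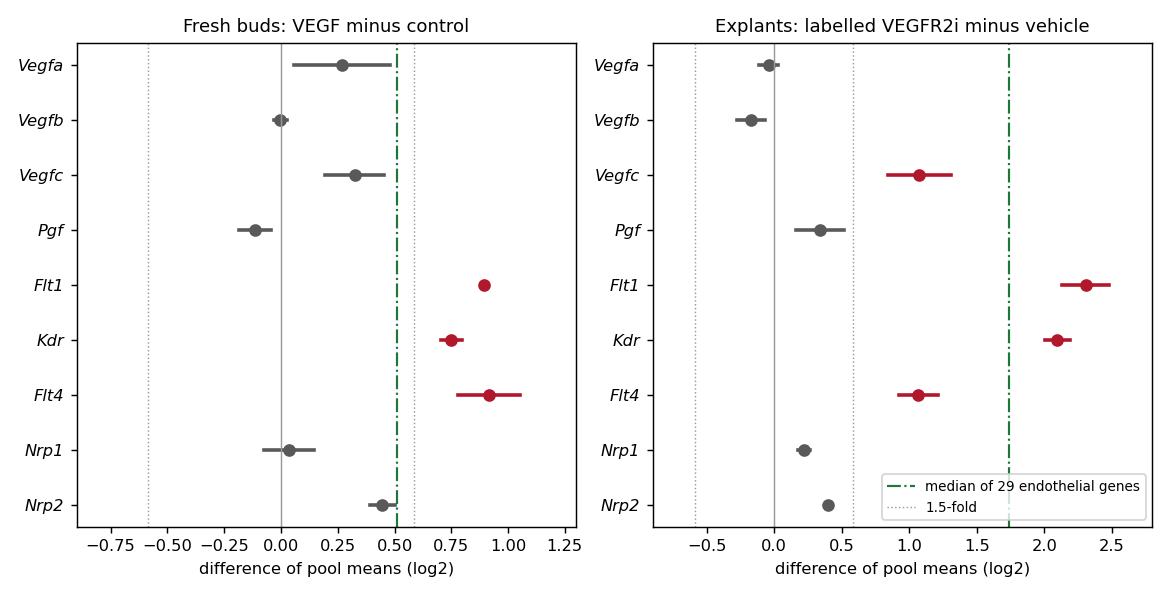
Difference of pool means on the log2 scale for each gene, in fresh buds (left, VEGF minus control) and in explants (right, pool labelled VEGFR2i minus pool labelled vehicle); lines span the 4 array pairs. Red marks genes past 1.5-fold (dotted lines), and the dash-dotted line is the median of 29 endothelial genes, 0.51 in buds and 1.74 in explants. The 3 receptors pass in both panels and Vegfc in the right panel.

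The second comparison set explants labelled VEGFR2i against explants labelled vehicle. The 3 receptor genes and Vegfc were higher in the pool labelled VEGFR2i, by 2.09-fold to 4.95-fold, and the other 5 members did not meet the size rule. Flt1 was at 6.60 and 6.38 on the arrays labelled VEGFR2i and at 4.25 and 4.12 on those labelled vehicle. The difference was 2.31 [2.13, 2.48], or 4.95-fold, and as vehicle over VEGFR2i a ratio of 0.202. Kdr, whose product the inhibitor targets, was at 8.20 and 8.04 against 6.01 and 6.04, a difference of 2.10 [2.00, 2.19] or 4.28-fold. Flt4 was at 4.59 and 4.73 against 3.52 and 3.66, a difference of 1.07 [0.92, 1.21] or 2.09-fold. In the pool labelled vehicle, Flt1 and Flt4 lay below the arrays' median of 4.32 to 4.33 over all probe sets, and Vegfc, at 4.29 and 4.34, lay at it. Whether these 3 were above background there was not tested, so their folds may be too small and the order of their sizes is not given.

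Vegfc was at 5.60 and 5.17 on the arrays labelled VEGFR2i and at 4.29 and 4.34 on those labelled vehicle, a difference of 1.07 [0.84, 1.31] or 2.10-fold. Its arrays labelled VEGFR2i were 0.43 apart, the widest spread of any member, and the difference was 0.86 without the first of them and 1.29 without the second. Vegfa, by contrast, was at 8.16 and 8.05 against 8.16 and 8.13, with overlapping arrays and a difference of -0.04 [-0.11, 0.03]. Vegfb was at 7.66 and 7.80 against 7.94 and 7.87, a difference of -0.17 [-0.28, -0.07] that was -0.10 without the first array labelled VEGFR2i. Pgf was at 7.51 and 7.17 against 7.01 and 6.99, a difference of 0.34 [0.16, 0.52] that became 0.17 without the first array labelled VEGFR2i and 0.51 without the second. None of these 3 ligands met the size rule.

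Both neuropilins were somewhat higher in the pool labelled VEGFR2i, under the size rule and with arrays apart. Nrp1 was at 9.79 and 9.71 against 9.53 and 9.52, a difference of 0.22 [0.18, 0.27]. Nrp2 was at 7.31 on both arrays against 6.93 and 6.89, a difference of 0.40 [0.38, 0.42], close to its difference between the bud pools. In all, 4 of 9 members were higher and none lower, against 1.82% and 0.371% of all genes. Arrays of the pools were apart for 8 of the 9, against 51.0% of all genes.

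Markers of endothelial cells moved with the receptors in both comparisons. In a pool of whole tissue, more cells of a type and more RNA per cell cannot be told apart. Of 29 endothelial genes, all 29 had positive differences between the bud pools, 8 met the size rule, and the median was 0.51, against 0.00 over all genes. The summed level of this list, on the log2 scale, was 12.8 on both VEGF arrays and 12.3 on both control arrays. Pecam1, an adhesion molecule of endothelial junctions, was at 8.57 against 8.05, and Cdh5, the cadherin of those junctions, at 9.03 against 8.52. The receptors lay in the upper part of this list: 1 of the 29 genes had a larger difference than Flt4, 2 than Flt1 and 3 than Kdr. Nrp2 stood within the list, with 18 genes above it, while all 29 lay above Nrp1.

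Between the explant pools, 27 of the 29 endothelial genes passed the rule, all of them upward, and the median was 1.74 with an upper quartile of 2.57. The summed level was 11.8 on both arrays labelled VEGFR2i and 9.64 to 9.70 on those labelled vehicle. Cdh5 was at 8.66 against 4.56, a difference of 4.10, and Pecam1 at 7.70 against 4.31, a difference of 3.39. Flt1 and Kdr exceeded the list's median by 0.57 and 0.36, with 10 and 11 of the 29 genes above them. Of the 29 genes, 25 had a larger difference than Flt4 and 25 a larger one than Vegfc, both dim in the pool labelled vehicle. For Nrp2 and Nrp1 these numbers were 27 and 28, so that Nrp2 was not within the bulk of the list here. Flt1 (4.18) and list genes such as Emcn (3.30) and Tek (3.54) were dim in the pool labelled vehicle as well. Their differences may be too small, so the list's median and all these ranks are uncertain. The part of endothelial content in the receptor differences was not tested.

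Of 6 lymphatic markers, 5 had positive differences between the bud pools, with a median of 0.27, and none was higher by the size rule. Over all 19938 genes, 10282 differences were positive between these pools. Lyve1, a hyaluronan receptor of lymphatic vessels, was at 7.34 against 6.94 there. The lymphatic transcription factor Prox1, which pancreatic epithelium also expresses, was the negative one and was lower in VEGF buds, with a difference of -0.72. Between the explant pools 4 of 6 markers were positive, with a median of 0.05, against 9589 of all 19938 genes. Of the markers Stab1, also carried by macrophages, was higher (1.44), and Lyve1 was at 4.38 against 4.10, near the arrays' median. Reln (4.43 against 4.35) was near it as well, and Stab2 (3.53 against 3.57) lay below it. Whether Flt4 differed from these markers was not tested.

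Other cell types moved as well. Of 18 macrophage and leukocyte genes, 14 were higher between the explant pools, with a median of 0.84 and a summed level of 10.7 against 9.82 to 9.84, and none met the size rule between the bud pools. Mural cell genes had 7 of 13 higher between the explants (median 0.61), led by Rgs5 (1.26) and Pdgfrb (1.15), and 1 higher (Mcam, also known from endothelium, 0.59) and 1 lower (Anpep, -0.77) between the buds. Mcam was just past the rule, and under joint quantile normalization no mural gene was higher in VEGF buds, against 3 with each array centred. Red blood cell genes had 6 of 12 higher in VEGF buds, among them the globin gene Hbb-bh1 (1.72), with a median of 0.66. Between the explants 2 of 12 were higher, Hbb-y (2.23) and Hba-x (1.62), with a median of 0.03. Several others, such as Rhag (2.90 against 2.95) and Kel (2.99 against 2.98), lay below the explant arrays' median over all probe sets. The median of the red cell list there may therefore be too small. Of 18 epithelial genes, 13 were lower in VEGF buds, with a median of -0.68 and a summed level of 12.52 to 12.59 against 13.3, and none met the rule between explants (median -0.16). Of 20 mesenchymal genes, Hlx (0.66) was higher and Prrx1 (-0.77) and Osr1 (-0.61) lower between the buds, and Thy1 (1.23), Postn (0.75), Hlx (0.69) and Zeb1 (0.68) were higher between the explants, with medians of 0.13 and 0.25. Among 12 neural and glial genes, those for the receptors Ret (-0.84) and Erbb3 (-0.79) and for the neuronal protein Stmn2 (-0.81) were lower in VEGF buds, and Ednrb (1.05) and Fabp7 (0.74) were higher between the explants. The part of these cell types in the values of Vegfa, Nrp1, Nrp2 and the other members was not tested.

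**Figure D3:**
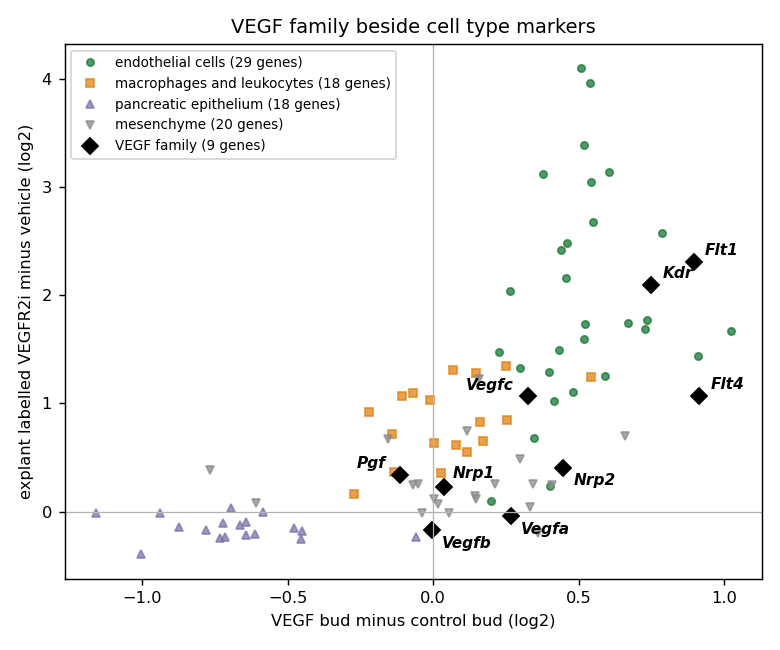
Difference between the bud pools (horizontal, log2) against the difference between the explant pools (vertical, log2) for the 9 VEGF family genes (black diamonds) and for 4 lists of cell type markers, 1 point per gene. Flt1 and Kdr lie toward the right of the endothelial genes, at 0.90 and 0.75 in buds and 2.31 and 2.10 in explants, while Vegfa and Vegfb lie near 0 on the vertical axis.

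Of 73 other genes of the pathway, 3 (4.11%) were higher and none lower between the bud pools. Between the explant pools 12 (16.4%) were higher and none lower. Of all genes, 0.552% and 1.82% were higher. All 3 in buds and 7 of the 12 in explants belong to the list of VEGF-induced endothelial genes described below. The lists were chosen with earlier results of these data known, so these shares describe the listed genes only. Vegfd, the second Flt4 ligand, was at 5.59 against 5.44 in buds and 6.80 against 6.60 in explants. Among 12 semaphorins and plexins that work with neuropilins, none met the rule between the buds. The closest was Plxna4, a plexin of axon guidance, which at 0.58 was just under it and met it when each array was centred on its median. Between the explants Plxnd1, the endothelial plexin, was higher by 1.00 and the vascular semaphorin Sema3g by 0.84, with a list median of 0.04.

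Of 38 genes that carry the signal from the receptors, none met the rule between the bud pools (median 0.01). The largest difference there was that of the phospholipase Pla2g4a (0.53). Between the explants, the endothelial nitric oxide synthase Nos3 (0.99) and the GTPase Rac2 (0.64), known from blood cells, were higher, with a median of 0.08. Of 10 oxygen sensing genes upstream of Vegfa, none met the rule between the buds, where Egln3 had the largest difference (0.35). Epas1, the hypoxia factor known from endothelium, was at 7.19 against 5.44 between the explants, a difference of 1.74. Hif1a, the widely expressed factor that drives Vegfa in low oxygen, was at 9.28 against 9.30 in buds and 9.76 against 9.53 in explants.

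Genes that VEGF induces in endothelial cells had 3 of 12 members higher between the bud pools and 7 of 12 between the explants. The bud count was 4 under joint quantile normalization or centring, and the explant count 6 under quantile normalization. Esm1, a secreted proteoglycan of tip cells, was at 5.44 against 3.69 in buds, a difference of 1.75 [1.65, 1.86], and at 6.84 against 3.66 in explants, a difference of 3.19 [3.07, 3.31]. Pdgfb, which attracts mural cells, was higher by 0.86 and the guidance receptor Unc5b by 0.60 in VEGF buds. In explants Dll4, the Notch ligand of tip cells, differed by 1.44, the potassium channel subunit Kcne3 by 1.28 and Unc5b by 1.24. Esm1 in control buds and in the pool labelled vehicle, and Kcne3 in the latter (3.26), lay below the arrays' median over all probe sets. The differences of Esm1 and Kcne3 may therefore be too small. In buds Dll4 was at 5.44 against 5.31. The medians of the list were 0.15 and 0.61.

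**Figure D4:**
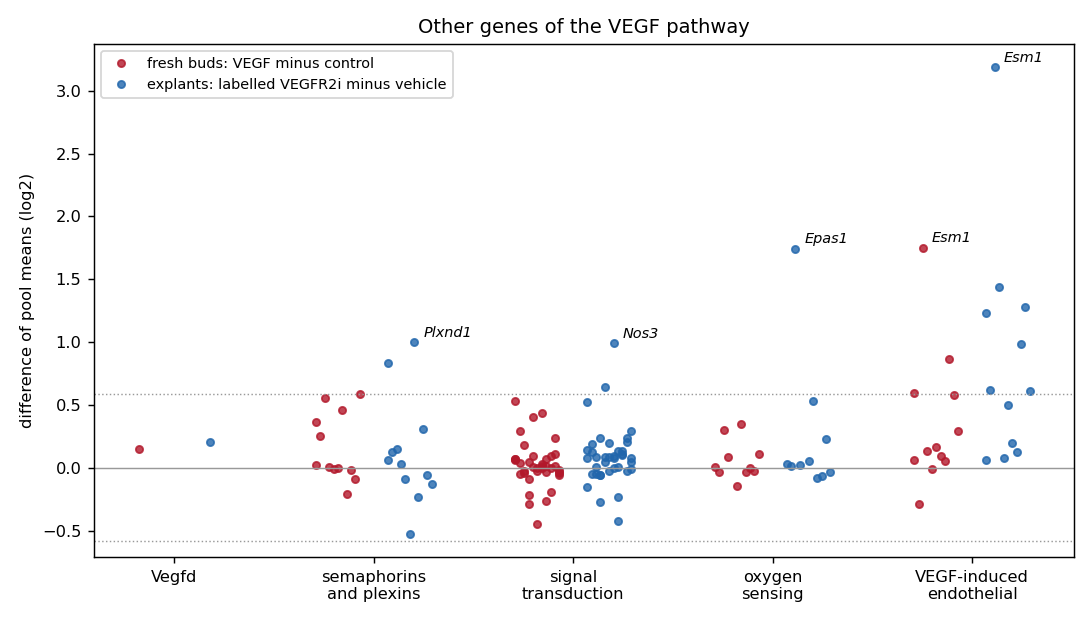
Difference of pool means (log2) for 73 other genes of the VEGF pathway, in 5 lists, 1 point per gene, for the fresh buds (red) and the explants (blue); dotted lines mark 1.5-fold. Points past the upper line are mostly VEGF-induced endothelial genes, with Esm1 at 1.75 and 3.19, and no point is past the lower line.

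Levels were also followed across all 4 pools. Explants lay above control buds by a median of 0.17 over all genes, and the sets may have been normalized apart, so differences between them are given relative to that median. Flt1, Kdr, Flt4, Nrp2 and Vegfc had the same order: VEGF bud highest, then control bud, explant labelled VEGFR2i and explant labelled vehicle. The arrays of neighbouring pools were apart at every step. Over all genes, arrays were apart for 45.3% between the bud pools and 51.0% between the explant pools. Between control bud and the pool labelled VEGFR2i the share was 81.2%, so that step says little about these genes. Flt1 was barely apart there, at -0.13 [-0.25, -0.01] as deposited, not relative to the median. From control bud to the pool labelled vehicle, Kdr differed by -2.89, Flt1 by -2.61, Vegfc by -2.13, Flt4 by -2.03 and Nrp2 by -1.16. In that pool Flt1, Flt4 and Vegfc lay at or below the arrays' median over all probe sets. Their values may therefore be too small in size, and no order is read from them. A smaller value than that of Kdr was found for 0.151% of all genes. From control bud to the pool labelled VEGFR2i the same genes differed by less: Flt1 by -0.31, Nrp2 by -0.77, Kdr by -0.79, Flt4 by -0.96 and Vegfc by -1.05. Under joint quantile normalization the Flt1 value was -0.48.

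Pgf ran the other way. It lay near 4 in both bud pools and at 6.99 to 7.51 on the explant arrays. It was above control buds by 2.72 in the pool labelled vehicle and by 3.05 in the pool labelled VEGFR2i. The bud levels of Pgf were close to the arrays' median over all probe sets, so these differences may be too small. A larger difference between the control and vehicle pools was seen for 0.436% of genes. Vegfa was above control buds by 0.54 and 0.49, and Nrp1 by 0.44 and 0.66, in the vehicle and VEGFR2i pools. For Vegfa 13.7% and for Nrp1 16.9% of genes had a larger difference between the control and vehicle pools. Vegfb differed by 0.12 and -0.06, and its sign against the vehicle pool turned under joint quantile normalization (-0.02), where the value against the VEGFR2i pool was -0.22. For these comparisons, the time in culture, the removal from the embryo, the Pdx1-tTA transgene that only the buds carried, the number of buds pooled and the array set cannot be told apart.

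Of the 9 genes, 6 spanned at least 1 on the log2 scale over the 4 pool means. For these, the genes with the most similar profile were sought by Euclidean distance between pool means, each centred on its own mean, over 4 pools and among 9787 genes, those above the median level without predicted genes. Flt1 was nearest to Gimap6 (distance 0.23), Cldn5 (0.33), a claudin of endothelial tight junctions, and Esam (0.36), an endothelial adhesion molecule. Kdr was nearest to the transcription factor Fli1 (0.33), Clec14a (0.35) and Flt1 itself (0.36). Flt4 was nearest to the protocadherin Pcdh17 (0.09), with differences of 0.79 between buds and 1.06 between explants, then Dysf (0.22) and Tmem88 (0.36). Nrp2 was nearest to Adamts3 (0.15), a protease that processes Vegfc, then Podxl (0.16) and Twist1 (0.16). Vegfc was nearest to the transcription factors Mef2c (0.19) and Tlx1 (0.19) and to Abcd2 (0.20). Pgf had looser neighbours, Tmem163 (0.32), Fmo1 (0.35) and the smooth muscle myosin Myh11 (0.36), the last at 4.11 and 4.16 in the bud pools and 7.76 and 6.94 in the explant pools labelled VEGFR2i and vehicle. With 4 pools, such distances describe these samples and carry no test.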

How the data were processed

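Expression was measured on 8 arrays, 2 for each of 4 pools of RNA, with groups taken from the labels. The authors deposited a log2 value for each probe set and array, made with RMA in Partek 6.5 according to the design text, and these were used as they stand. Of 35399 probe sets, 21789 had exactly 1 symbol in the platform annotation, 1621 had several and 11989 were unnamed. For 999 genes with more than 1 probe set, the one with the highest mean stood for the gene. The t-test that the design text names was not run, since arrays of 1 pool measure hybridization only. The 2 arrays per pool limit the precision. Each difference was counted by the rule of 1.5-fold with arrays apart (Python 3.11.15, pandas 2.3.3). Simulated data checked its calls of higher genes but not its calls of lower genes. Named genes were the 9 members, for each list up to 4 genes past the rule with the largest absolute difference or else the 1 largest, and the 3 nearest profiles per member. Other listed genes named here, such as Pecam1, Hif1a, Lyve1, Dll4 in buds and Prox1, were picked after their values were seen. Members and lists were chosen with earlier results of these data known. Alternatives covered probe sets, normalization, centring, fold, low levels and each array left out.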

Additional observations from a re-analysis of the deposited data

How the results depend on the processing

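The members past the size rule were Flt1, Kdr and Flt4 in buds and these with Vegfc in explants when probe sets of a gene were averaged, the 8 arrays were quantile normalized together, each array was centred on its median, or any single array was left out. Without single arrays the counts of members ranged from 3 to 3 in buds and from 4 to 4 in explants, and those of all genes from 312 to 337 (VEGF bud array 1 or 2 left out), 300 to 316 (control bud), 428 to 483 (explant labelled VEGFR2i) and 440 to 446 (explant labelled vehicle). With a size of 2-fold, 0 members passed in buds and 4 in explants, against 50 and 133 of all genes. With a lower limit (0.32 in log2), 5 passed in buds (Vegfc and Nrp2 added) and 6 in explants (Pgf and Nrp2 added), against 1030 and 1254 genes. Restricting to genes above the median level left 8 members, without Flt4, of which 2 passed in buds and 3 in explants. Of 18 member differences, 3 changed sign under some alternative, those of Vegfb and Nrp1 in buds and of Vegfa in explants, and the largest shift was 0.21. Scalings across the sets and of the lists were added after seeing the data. No paired analysis was possible because each condition is 1 pool and the array numbers mark technical repeats.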
